A study of Bos taurus with 6 samples.

Results

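ABCC8, the genes of ATP-sensitive potassium (KATP) channels and related ABCC transporters were read in cumulus cells of cattle, which enclose the oocyte inside its follicle. The 7 genes considered were ABCC8, ABCC9, KCNJ8, KCNJ11, ABCC1, ABCC4 and ABCC5, and a probe set counted as a member when its only gene symbol in the platform annotation was 1 of these names. By this rule 3 of the 7 genes were measured, through 4 of the 24016 probe sets that are not controls: ABCC8 and KCNJ8 with 1 probe set each and ABCC1 with 2. ABCC9, KCNJ11, ABCC4 and ABCC5 carry no probe set under the rule and were not analysed here. The members were chosen on measured values: ABCC8 was taken up because its difference between the follicle classes was among the largest decreases of these data, so the differences of the members are given as a description, without a test. The other genes were added as its channel partners and transporter relatives.

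The large_follicle group holds 3 arrays of cumulus cells from follicles of 8 mm or more, which the submitters call competent, and the small_follicle group holds 3 arrays from follicles of 1 to 3 mm, called incompetent. Both groups came from ovaries of slaughtered crossbred cows (Bos indicus x Bos taurus), with no treatment, and only complexes with several compact cumulus layers were used. Each array holds RNA of pooled cumulus cells. How many cows and complexes made up a pool, and how old the cows were, was not stated in the labels, so errors and p-values measure the spread between pools. The values are log2 signals per probe set (RMA, a method that normalises Affymetrix arrays and summarises their probes), and the array medians lay between 5.64 and 5.68.

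A KATP channel is built from pore subunits of the inward rectifier family, KCNJ11 (Kir6.2) or KCNJ8 (Kir6.1), each paired with a regulatory sulfonylurea receptor, ABCC8 (SUR1) or ABCC9 (SUR2). ATP closes the pore and magnesium-bound ADP, sensed by the sulfonylurea receptor, opens it, so the channel links the energy state of a cell to its membrane potential. In pancreatic beta cells the pair of ABCC8 and KCNJ11 couples glucose breakdown to insulin release, while KCNJ8 with ABCC9 is best known from vascular smooth muscle and pericytes. The receptors belong to the ABCC family, which also holds the chloride channel CFTR and exporters of organic anions: ABCC1 carries glutathione conjugates and leukotriene C4, and ABCC4 and ABCC5 carry cyclic nucleotides. The genes of each pair lie side by side in the cattle genome (RefSeq annotation of ARS-UCD2.0, used for gene order only): KCNJ11 is the next protein-coding gene to ABCC8, and ABCC9 the next to KCNJ8.

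The 2 measured channel genes differed in opposite directions: the receptor gene ABCC8 was lower and the pore gene KCNJ8 higher in cumulus cells of large follicles, while both probe sets of the transporter gene ABCC1 stayed near the same low signal. ABCC8 read 5.97, 5.91 and 6.34 in large_follicle replicates 1 to 3, against 8.54, 8.44 and 7.82 in small_follicle replicates 1 to 3. Every large_follicle array lay below every small_follicle array, with a gap of 1.48 log2 units between the nearest pair. The mean was 6.07 ± 0.23 (SD, n = 3) in large_follicle arrays and 8.27 ± 0.39 (SD, n = 3) in small_follicle arrays, a difference of -2.19 ± 0.20 log2 units (± SE from the limma fit across all probe sets), or a signal 4.57 times as strong in small_follicle arrays. Counted from the lowest difference, ABCC8 ranked 16 among the 24016 probe sets. In a bulk measurement of this kind, fewer cells with a transcript and less transcript per cell cannot be told apart.

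Within each class the third replicate stood nearest to the other class. The range of ABCC8 was 0.43 log2 units over the large_follicle arrays, whose highest value was replicate 3, and 0.72 over the small_follicle arrays, whose lowest value was replicate 3. With any 1 array left out the ABCC8 difference lay between -2.42 and -2.06.

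KCNJ8, the pore subunit Kir6.1, read 6.84, 7.52 and 6.87 in large_follicle replicates 1 to 3, against 4.93, 6.32 and 6.24 in small_follicle replicates 1 to 3. The groups did not overlap, with a gap of 0.52 log2 units, but small_follicle replicate 1, at 4.93, lay far below the other arrays of its group. KCNJ8 averaged 7.08 ± 0.38 (SD, n = 3) in large_follicle arrays and 5.83 ± 0.78 (SD, n = 3) in small_follicle arrays, a difference of 1.25 ± 0.36 (± SE), or 2.37-fold. Without small_follicle replicate 1 the difference was 0.80, and over the fits that left out 1 array it ran between 0.80 and 1.49. No single array moved the ABCC8 difference by as much, in proportion, as small_follicle replicate 1 moved that of KCNJ8.

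ABCC1, also known as MRP1, did not separate the classes with either probe set. Its dimmer probe set read 3.52, 3.64 and 3.82 in large_follicle arrays and 3.99, 3.66 and 3.53 in small_follicle arrays. Its brighter probe set read 4.91, 4.98 and 4.81 in large_follicle arrays and 4.98, 4.84 and 4.76 in small_follicle arrays. The groups overlapped in both probe sets, and the differences of -0.07 ± 0.14 and 0.04 ± 0.10 (± SE) were smaller than their standard errors. The 95% intervals of these differences ran from -0.39 to 0.26 and from -0.19 to 0.27. Neither probe set was above background in a class by the 3 levels set out next. The brighter one did exceed a lower level, the lower quartile of all probe sets (3.77 to 3.87), on 3 of 3 arrays of each class. At such low signals these intervals cannot show whether the ABCC1 transcript changed.

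**Figure D1:**
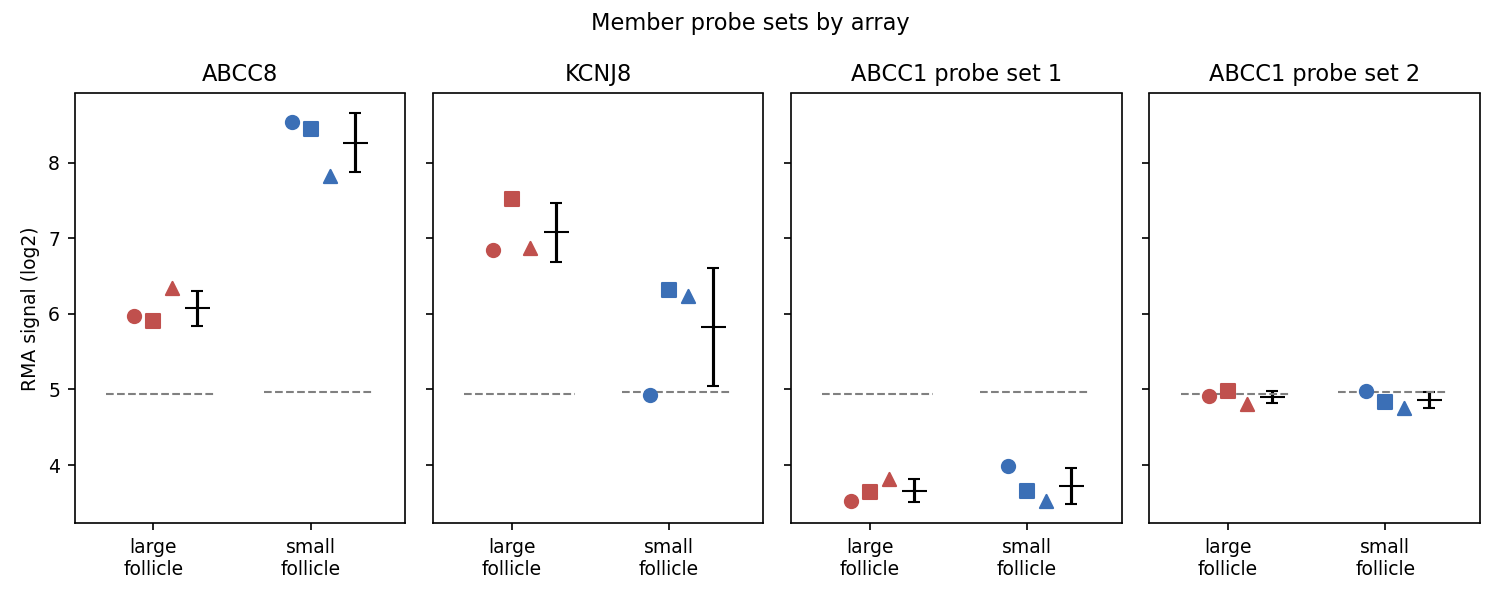
Log2 RMA signal of the 4 member probe sets on each array, with large_follicle arrays (red) to the left of small_follicle arrays (blue); circles, squares and triangles are replicates 1, 2 and 3, bars are mean ± SD (n = 3), and dashed lines are the group's mean of the 75th percentile of background genes. ABCC8 lies between 5.91 and 6.34 in large_follicle arrays and between 7.82 and 8.54 in small_follicle arrays, and KCNJ8 shows the opposite order. The dimmer ABCC1 probe set lies below the dashed lines and the brighter one close to them. The brighter one is just above them on large_follicle replicate 2 and small_follicle replicate 1, at 4.98 each.

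By limma, at a Benjamini-Hochberg adjusted 0.05, 1 of the 4 member probe sets was called, that of ABCC8, as were 12.9% of all probe sets (5.72% higher and 7.16% lower in large_follicle arrays). The groups did not overlap in 2 of the 4 member probe sets, ABCC8 and KCNJ8, nor in 30.9% of all probe sets (14.7% with large_follicle arrays higher and 16.3% with them lower). Since ABCC8 was chosen for its difference in this contrast, these counts are read no further. The median difference was 0.01 over all probe sets, and the central 95% of all differences ran from -0.74 to 0.79.

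RMA values carry no detection call, so each member was set against levels read from the same arrays. The level chosen for this was the 95th percentile of 119 probe sets of 59 genes of liver, pituitary, eye, muscle, milk, pancreas, brain, skin, lung, kidney and red blood cells that cumulus cells are not known to express. That level lay between 8.57 and 8.80, only 13.3% of all probe sets exceeded it on every array, and none of the 4 member probe sets did. The level was high because several listed genes gave strong signals, with a POMC probe set at 14.02 in large_follicle and 14.04 in small_follicle arrays. By the 75th percentile of the same genes, between 4.81 and 5.07, ABCC8 was above background on 3 of 3 large_follicle and 3 of 3 small_follicle arrays. By that level KCNJ8 was above it on 3 of 3 large_follicle and 2 of 3 small_follicle arrays, the exception being small_follicle replicate 1. ABCC1 was above it on 1 of 3 large_follicle and 0 of 3 small_follicle arrays with its brighter probe set, and on 0 of 6 with the other.

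A further level came from 46 control probe sets of the array that are named by a sequence accession and carry no bovine gene symbol, chosen after the data were seen. Their 95th percentile lay between 4.62 and 5.06. ABCC8 and KCNJ8 exceeded it on 3 of 3 large_follicle and 3 of 3 small_follicle arrays each. The brighter ABCC1 probe set exceeded it on 1 of 3 large_follicle and 2 of 3 small_follicle arrays, and the dimmer one on none. ABCC8 in both classes and KCNJ8 in large follicles were thus above the lower levels tried, and ABCC1 was not above background in either class by the 3 levels given here.

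A sign of RNA quality went with the classes as well. The 3'-minus-5' index, the excess of 3' over 5' probe set signal as a mean of 6 control transcripts of cattle, was 2.15, 1.77 and 2.01 log2 units in large_follicle replicates 1 to 3 and 2.67, 2.53 and 2.16 in small_follicle replicates 1 to 3. The groups did not overlap, and their means differed by -0.48. A 2-sided exact permutation test gave p = 0.1, which is as low as 3 arrays a group can reach. KCNJ8 was highest on the array with the lowest index, large_follicle replicate 2, and lowest on the array with the highest index, small_follicle replicate 1. On the same 2 arrays ABCC8 had the reverse extremes: its lowest value, 5.91, on large_follicle replicate 2 and its highest, 8.54, on small_follicle replicate 1. With the index of each array as a covariate, the KCNJ8 difference was 0.31 ± 0.43 (± SE), against 1.25 without it. The ABCC8 difference was -1.68 ± 0.24 with the covariate, against -2.19 without it. Both differences were smaller in size with the covariate. The part of RNA quality in either difference was not tested beyond this fit.

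**Figure D2:**
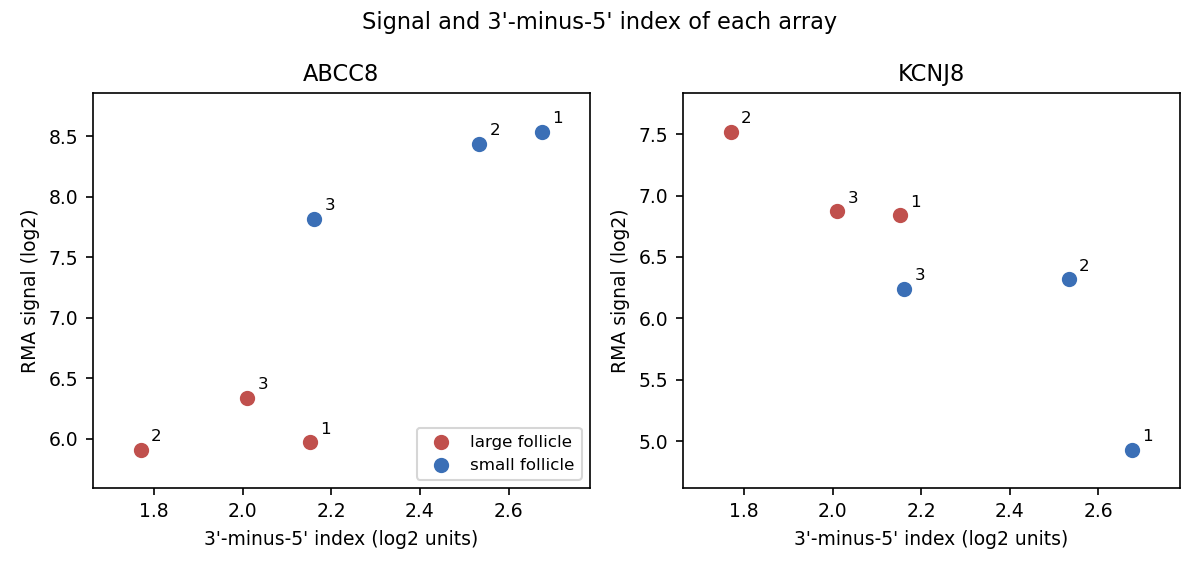
Log2 RMA signal of ABCC8 (left) and KCNJ8 (right) against the 3'-minus-5' index of each array in log2 units, for large_follicle (red) and small_follicle (blue) arrays, numbered by replicate. At nearly equal index, near 2.15, large_follicle replicate 1 and small_follicle replicate 3 read 5.97 and 7.82 for ABCC8, and 6.84 and 6.24 for KCNJ8.

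Markers of other cells in which these genes are known were read beside the members. KCNJ8 and ABCC9 are used as pericyte markers, and of 9 measured pericyte and smooth muscle genes 2 rose, 0 fell and 7 did not pass. TAGLN, an actin-binding protein of smooth muscle, rose by 1.67 ± 0.33, and CNN1, the smooth muscle calponin, by 0.66 ± 0.09, whereas ACTA2 read 0.75 ± 0.24 and did not pass. MYH11 had the lowest difference of the list, opposite in direction to KCNJ8. It read -0.39 ± 0.31 (9.35 in large_follicle and 9.73 in small_follicle arrays) and did not pass. The call of TAGLN was lost without large_follicle replicate 2 (1.57) or small_follicle replicate 2 (1.605), and its difference was 0.62 with the 3'-minus-5' index. Of the 9 genes, 7 (ACTA2, CNN1, CSPG4, DES, MCAM, MYH11 and TAGLN) exceeded the 75th percentile of background genes in a class, and 2 of these, MCAM and MYH11, the 95th. The others, the pericyte genes RGS5, at 2.43 in large_follicle and 2.67 in small_follicle arrays, and PDGFRB, at 3.85 in large_follicle and 3.89 in small_follicle arrays, did not in either class. The summed linear signal of the list ranged from 1504 to 2049 in large_follicle arrays and from 1550 to 2075 in small_follicle arrays. The mean log2 signal ranged from 5.94 to 6.28 in large_follicle arrays and from 5.78 to 5.83 in small_follicle arrays, the same direction as KCNJ8. The part of these markers in the KCNJ8 difference was not tested.

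ABCC8 is known from endocrine and nerve cells. Of 12 measured neuroendocrine genes 0 rose, 1 fell and 11 did not pass. The granin CHGA fell by 0.64 ± 0.13 with 1 probe set (-0.49 and not called with the 3'-minus-5' index), while its brighter probe set read -0.07 ± 0.10 and did not pass. The summed linear signal of these genes ranged from 4878 to 5275 in large_follicle arrays and from 5271 to 5432 in small_follicle arrays, and the mean log2 signal from 5.34 to 5.50 in large_follicle arrays and from 5.44 to 5.58 in small_follicle arrays. Of the 12 genes, 5 (CHGA, INS, SCG5, SNAP25 and SYP) exceeded the 75th percentile of background genes in a class, and 2 of these, CHGA and SCG5, the 95th. The hormone and convertase genes GCG, SST, PCSK1 and PCSK2 and the granin genes CHGB, SCG2 and SCG3 did not in either class. The insulin gene INS read 5.14 in large_follicle and 4.94 in small_follicle arrays. The part of these markers in the ABCC8 difference was not tested. INS is also 1 of the background genes. Of 11 leukocyte genes 2 rose (CORO1A by 0.62 and LCP1 by 0.89, both below that level), with a mean log2 signal of 3.97 to 4.57 in large_follicle arrays and 3.79 to 4.03 in small_follicle arrays. Both leukocyte calls were lost without large_follicle replicate 1 (0.50 and 0.69), large_follicle replicate 2 (0.66 and 0.85), small_follicle replicate 1 (0.58 and 0.79) or small_follicle replicate 2 (0.53 and 0.78).

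The remaining lists bear on the label. Of 9 endothelial genes TEK fell by 0.57, at a low signal, and of 7 theca and 7 oocyte genes 0 passed by limma. At an unadjusted p under 0.05 these were 1 gene for theca, COL1A2, and 0 for the oocyte. The differences of the theca probe sets ran from -1.29 to 0.12. Theca genes above the 75th percentile of background genes in a class were 3 of 7, COL1A1, COL1A2 and INSL3. INSL3 also exceeded the 95th. Endothelial genes above the 75th percentile in a class were 2 of 9, CLDN5 and PECAM1, and 0 exceeded the 95th. None of the oocyte genes, ZP2, ZP3, ZP4, GDF9, BMP15, NLRP5 and KPNA7, reached the 75th percentile of background genes. Of 11 granulosa and cumulus genes 10 reached it, the exception being FOXL2. By the 95th percentile 9 of the 11 did, among them CYP19A1, INHA and INHBA. These granulosa and cumulus genes themselves went with the classes: 6 of the 11 rose, 1 fell and 4 did not pass, where 8.36% of all 9155 named genes rose and 9.15% fell. CYP19A1, the aromatase that makes oestradiol, rose by 2.14 ± 0.22, CYP11A1, which starts steroid synthesis, by 1.72 ± 0.16, and INHBA, an inhibin and activin subunit, by 1.14 ± 0.10. NR5A2 rose by 0.70, FSHR by 0.56 and INHA by 0.42, and GATM fell by 1.20 ± 0.29. FSHR kept its call only without small_follicle replicate 3, and INHA only without large_follicle replicate 3 or small_follicle replicate 1, among the fits that left out 1 array. The call of GATM was lost without small_follicle replicate 1 (-1.23) or 3 (-1.01). The mean log2 signal of the list ranged from 8.95 to 9.10 in large_follicle arrays and from 8.50 to 8.57 in small_follicle arrays, without overlap, and its part in the differences of ABCC8 and KCNJ8 was not tested.

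Other potassium channel genes differed little between the classes. Of 24 measured genes with 33 probe sets, 0 were higher and 0 lower by limma at an adjusted 0.05, where 8.36% of all 9155 named genes were higher and 9.15% lower. At an unadjusted p under 0.05 there were 2, KCNQ1 and KCNK1. Differences ran from -0.35 to 0.39, with a median of 0.01. KCNK1, a two-pore leak channel, had the highest of them at 0.39 ± 0.11 (5.57 in large_follicle and 5.17 in small_follicle arrays), and its brighter probe set read -0.06 ± 0.17. KCNMA1, the large-conductance calcium-activated channel, read -0.34 ± 0.30 with its brightest probe set. KCNJ2, an inward rectifier (Kir2.1), read 3.22 in large_follicle and 3.23 in small_follicle arrays, and only 7 of the 24 genes reached the 75th percentile of background genes in a class: KCND1, KCNF1, KCNH3, KCNK1, KCNMA1, KCNMB4 and KCNN4.

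Among 18 measured ABC transporters outside the member list, 0 were higher, 1 was lower and 17 did not pass, beside 8.36% higher and 9.15% lower over all named genes. Leaving out large_follicle replicate 2 gave 1 higher, and leaving out large_follicle replicate 3 gave 2 lower. ABCA4, a retinoid flippase of photoreceptors, fell by 0.78 ± 0.11 (4.14 in large_follicle and 4.92 in small_follicle arrays), below the 75th percentile of background genes in both classes. ABCG2, an efflux pump for drugs and urate, averaged 7.88 in large_follicle and 8.06 in small_follicle arrays, a difference of -0.18 ± 0.10, and ABCB1 (P-glycoprotein) read 2.53 in large_follicle and 2.41 in small_follicle arrays. Of the ABCC family, ABCC3 read 3.41 in large_follicle and 3.34 in small_follicle arrays. The brighter probe set of CFTR, also known as ABCC7, read 8.77 in large_follicle and 8.61 in small_follicle arrays, a difference of 0.17 ± 0.12 that did not pass. The other CFTR probe set read only 2.90 in large_follicle and 2.93 in small_follicle arrays, below the 75th percentile of background genes. Which of the CFTR probe sets reads the transcript was not tested. The differences of these 20 probe sets ran from -0.78 to 0.43, with a median of 0.002, against 0.01 over all probe sets.

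**Figure D3:**
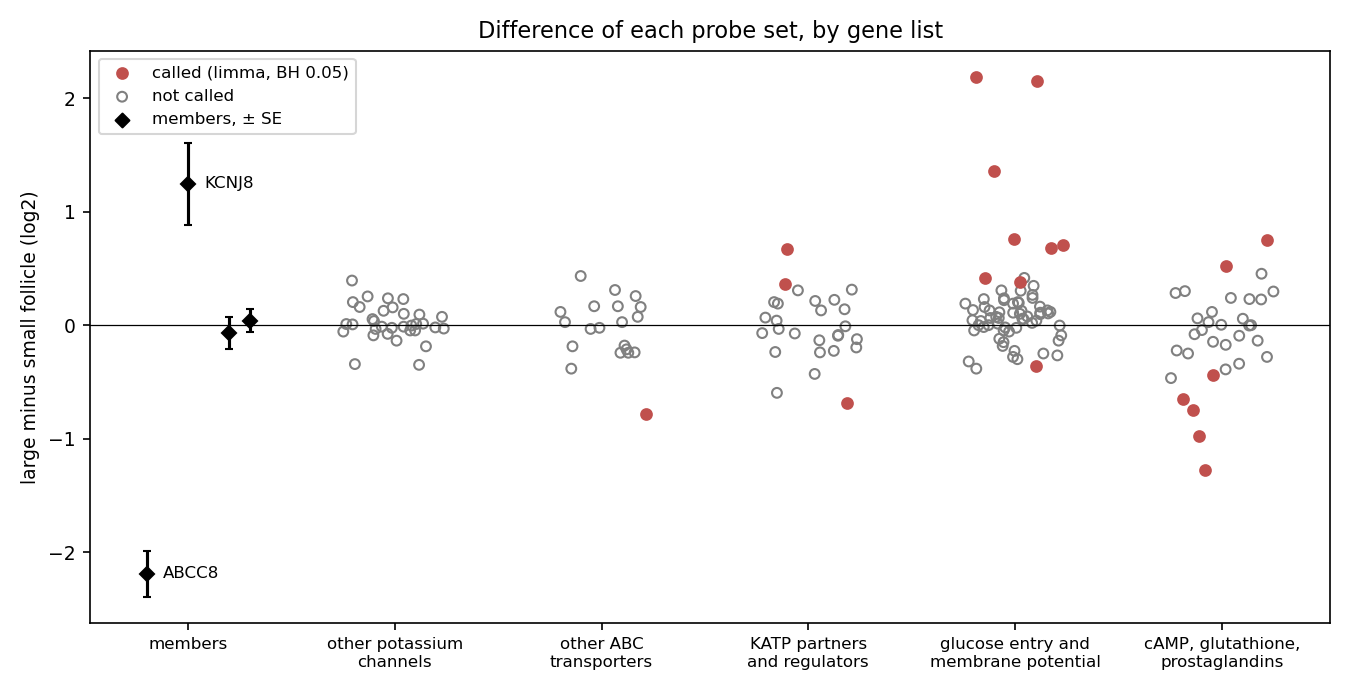
Difference of each probe set, large_follicle minus small_follicle in log2 units, for the members (black diamonds with SE; the unlabelled ones are the ABCC1 probe sets) and for the 5 gene lists (red points called by limma, open circles not called). ABCC8, which was chosen for its difference, is at -2.19 and KCNJ8 at 1.25. The other potassium channel genes run from -0.35 to 0.39, and only 7 of these 24 genes reached the 75th percentile of background genes in a class. The glucose list reaches 2.19.

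Of 18 measured genes that bind KATP channels, carry them to the membrane or buffer the nucleotides they sense, 2 rose, 1 fell and 15 did not pass, which is 11.1% higher and 5.56% lower beside 8.36% and 9.15% of all named genes. CKM, the muscle creatine kinase, rose by 0.67 ± 0.12 (11.86 in large_follicle and 11.19 in small_follicle arrays), and its other, dim probe set read -0.01. EHD1, an endocytic recycling protein, rose by 0.36 ± 0.10, and ANK3, ankyrin-G, fell by 0.68 ± 0.17. EHD1 lost its call in each fit that left out 1 array (0.32 to 0.41). ANK3 lost its call without large_follicle replicate 1 (-0.56) or 3 (-0.71) and without small_follicle replicate 1 (-0.585) or 3 (-0.625). ENSA, alpha-endosulfine, known as a ligand of the sulfonylurea receptor, had 6 probe sets with differences from -0.60 to 0.31, none called. TRPM4 and RAPGEF4 have no probe set by the same rule. The median of the list was -0.03.

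Genes of glucose entry and of the steps that lead from glucose to membrane potential included more that rose than fell: 8 of the 32 measured rose (25%, beside 8.36% of all named genes), 1 fell (3.12%, beside 9.15%) and the other 23 did not pass, with a median of 0.10 over 67 probe sets. Without large_follicle replicate 2 the number that rose was 5. The glucose transporters SLC2A1, at 2.19 ± 0.18, and SLC2A3, at 2.15 ± 0.48, rose most, followed by PFKP at 1.36, PFKL at 0.76, GAPDH at 0.70 and PKM at 0.68. The call of SLC2A3 was lost without large_follicle replicate 1 (2.27), 2 (1.94) or 3 (2.25). GLUD1, glutamate dehydrogenase, at 0.42, and SLC25A6, an ADP/ATP carrier of mitochondria, at 0.38, each lost the call in 5 of the 6 fits that left out 1 array (0.36 to 0.43 for GLUD1 and 0.33 to 0.41 for SLC25A6 in those 5). Another probe set of GLUD1 read -0.25 ± 0.13 and was not called. Nor were further probe sets of SLC25A6 called, 1 at -0.32 ± 0.09 and a brighter one at 0.06 ± 0.10. The member that fell was ATP1B3, a sodium pump subunit, at -0.36, named after its value was seen, and its call was lost in each fit that left out 1 array (-0.41 to -0.32). The voltage-gated calcium channel genes of the list did not pass.

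Of 26 measured genes that make, break down or handle the known substrates of the ABCC exporters (cyclic nucleotides, glutathione conjugates and prostaglandins), 2 rose (7.69%, beside 8.36% of all named genes), 5 fell (19.2%, beside 9.15%) and 19 did not pass. The number that fell was 3 without large_follicle replicate 1 and 3 without small_follicle replicate 3. The soluble guanylate cyclase subunits GUCY1B1 and GUCY1A1 fell by 0.98 ± 0.13 and 0.65 ± 0.14, whereas NPR2, the membrane guanylate cyclase that is the receptor of C-type natriuretic peptide, rose by 0.52 ± 0.09. Another probe set of GUCY1A1 read -0.39 and was not called. GCLC, which makes the glutathione precursor, rose by 0.75 ± 0.14, and GSR, glutathione reductase, fell by 0.75 ± 0.13. PTGS2, the inducible cyclooxygenase, fell by 1.28. GSTM3, a glutathione transferase named after its value was seen, fell by 0.44 and lost its call in 5 of the 6 fits that left out 1 array (-0.475 to -0.38). The call of GUCY1A1 was lost without large_follicle replicate 1 (-0.605) or 3 (-0.57) or small_follicle replicate 3 (-0.55). When the fit included the 3'-minus-5' index, 0 genes of the channel, transporter and KATP partner lists were called, SLC2A1 was the only glucose gene called, and GUCY1A1 was the only gene called, by another probe set, in the cyclic nucleotide, glutathione and prostaglandin list. In that fit limma called 99 probe sets higher and 116 lower of 24016, against 1374 and 1720 without it.

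Across the 6 arrays, the genes whose pattern was most like that of ABCC8 were read by Pearson correlation among 1329 probe sets with 1 gene symbol and a range of at least 1 log2 unit. The arrays fall into the follicle classes, so a high r over 6 arrays mostly reflects a difference between the classes in the same direction, and r is given as a description. The highest was LMNB1, lamin B1 of the nuclear envelope, with r = 0.9983, followed by RMI2 (0.9959), a subunit of a complex that resolves DNA crossovers, and the histone variant gene MACROH2A2 (0.9957). RHOB, a small GTPase, had r = 0.9955, SPTSSA, of serine palmitoyltransferase, 0.9945, ACSS1, a mitochondrial acetyl-CoA synthetase, 0.9940, the carbonic anhydrase gene CA14 0.9931, and the ephrin receptor gene EPHA1 0.9925. LMNB1 read 7.97, 7.90 and 8.23 in large_follicle arrays and 9.32, 9.23 and 8.93 in small_follicle arrays, with replicate 3 again nearest to the other class on both sides. All 8 differed by less than ABCC8 did, between -1.30 (CA14) and -0.87 (EPHA1). Over all probe sets, 667 others (2.78%) had r above 0.95 with ABCC8.

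**Figure D4:**
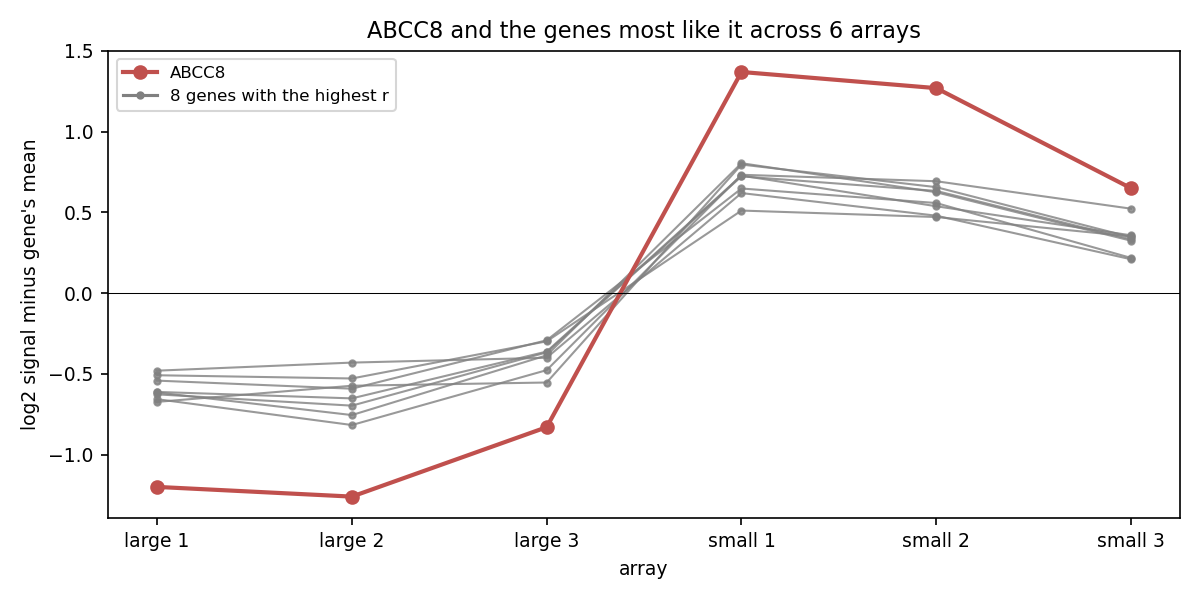
Log2 signal of ABCC8 (red) and of the 8 genes with the highest Pearson r to it (grey) on each array, after the gene's mean over the 6 arrays was taken off; lines join values of 1 gene and imply no order of arrays. ABCC8 and the 8 others are below their mean in the 3 large_follicle arrays and above it in the 3 small_follicle arrays, with replicate 3 nearest to the mean in small_follicle arrays.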

How the data were processed

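RNA of 6 pools of cumulus cells was hybridised to Affymetrix bovine arrays, 1 array per pool, 3 per follicle class. The authors deposited log2 signals per probe set; RMA is named in the submitters' processing notes, without version or settings. Values lie between 1.80 and 14.39, and the number of arrays limits the precision.

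Tests left out 112 control probe sets. Of the 24016 others, 13292 carry 1 gene symbol in GEO's platform annotation, 86 several and 10638 none. The gene identifiers of 13263 probe sets matched RefSeq (ARS-UCD2.0), which changed 0 symbols. Of the 4 member probe sets, only 1 of the ABCC1 pair is annotated through a RefSeq transcript. Members of 1 gene were kept apart, not averaged. Sequences were not used here.

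Differences are large_follicle minus small_follicle from limma 3.58.1 in R 4.3.3 (lmFit, eBayes, no block, all 6 arrays), 2-sided, at 0.05 after Benjamini-Hochberg adjustment across the 24016 probe sets. A listed gene counts as risen or fallen when any of its probe sets is called, and up to 6 called genes per list (by smallest p) are named, plus a set chosen for links to KATP channels. The members, the lists and the alternatives were chosen with earlier results of these data known. Alternatives were leaving out each array, a replicate block, 3 scalings between arrays, another prior, array weights, a filter at the median, the 3'-minus-5' index, other thresholds and other background levels. No label says that a replicate number marks a shared day or pool, so the fit reported has no block. Deviations of same-numbered arrays from their group means correlated at -0.002, -0.05 and -0.34, which cannot show whether such arrays were paired. On simulated data the fit over 24016 probe sets recovered 26.9% of 67 changes of 0.5 log2 units, 82.1% of 67 changes of 1 and 97.0% of 66 changes of 2, with 8 false calls. The simulated noise was independent between probe sets, and the changed share was far below the 12.9% called in the data. These rates therefore need not hold for the fit reported. Figures were drawn with matplotlib 3.10.9.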

Additional observations from a re-analysis of the deposited data

How the results depend on the processing

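With the 3'-minus-5' index in the fit, ABCC8 read -1.68 and KCNJ8 0.31. The dimmer ABCC1 probe set then read 0.15 in place of -0.07, and the brighter one 0.12 in place of 0.04. The 3 scalings and the array weights gave -2.285 to -2.15 for ABCC8 and 1.03 to 1.275 for KCNJ8. The replicate block, the other prior and the filter cannot move a difference in this balanced design. They therefore say nothing about its stability. Leaving out 1 array gave -2.42 to -2.06 for ABCC8, 0.80 to 1.49 for KCNJ8, and -0.165 to 0.065 and -0.01 to 0.10 for the ABCC1 probe sets, so the sign for ABCC1 is not fixed. The filter at the median of probe set means removes both ABCC1 probe sets and gave no value for them. KCNJ8, not called in the fit reported, was called with the replicate block and with that filter. Over all probe sets 1374 were called higher and 1720 lower. Leaving out 1 array gave 787 to 1142 higher and 828 to 1337 lower, and moved a count by over 1.5 times without large_follicle replicate 1 (851 and 947) or 2 (867 and 1066) and without small_follicle replicate 1 (843 and 1051) or 2 (787 and 828). The replicate block gave 930 and 1034, the index 99 and 116, and a threshold of 0.01 gave 528 and 535. The replicate block left 1 higher and 0 lower among the KATP partners, 6 and 0 among the glucose genes, and 3 lower in the cyclic nucleotide, glutathione and prostaglandin list. The number of member probe sets above background in both classes was 0 by the 95th percentile of background genes, also without any 1 array. It was 1 by their 75th percentile, 1 by the median of all probe sets, and 2 by the control probe sets, a level chosen after seeing the data. By the lower quartile of all probe sets it was 3: ABCC8, KCNJ8 and the brighter ABCC1 probe set. The causes of these shifts were not tested beyond the values given.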

Other observations

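Genes that lie beside the channel genes were read for position, chosen with the member values known. Of the 10 protein-coding genes nearest to ABCC8 in the RefSeq order, 5 were measured and 1 was called: NUCB2, the nucleobindin that holds the nesfatin sequence, fell by 0.54 ± 0.11 (7.13 in large_follicle and 7.67 in small_follicle arrays). Its call was lost without large_follicle replicate 1 (-0.515) or 2 (-0.48) and without small_follicle replicate 1 (-0.53). USH1C, which adjoins ABCC8 on the side away from KCNJ11, read 4.28 in large_follicle and 4.17 in small_follicle arrays. Of the 10 genes nearest to KCNJ8, 5 were measured and 1 was called, C2CD5, at -0.92 ± 0.13 with its brightest probe set and with 3 dimmer ones not called. LDHB, the lactate dehydrogenase subunit gene next to KCNJ8, read 12.50 in large_follicle and 12.66 in small_follicle arrays, a difference of -0.16 ± 0.09 that did not pass.

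The pattern of KCNJ8 across the 6 arrays, read the same way after its values were seen, was most like those of IRF2 (r = 0.9913), ZNF432 (0.9908), POLR1E (0.9900) and PRNP (0.9888), and 181 other probe sets (0.754%) had r above 0.95. ZNF432 averaged 3.29 in large_follicle and 2.75 in small_follicle arrays, below the 75th percentile of background genes (4.81 to 5.07). IRF2 averaged 5.15 in large_follicle and 4.61 in small_follicle arrays, the latter below that level. SLC2A3, the high-affinity glucose transporter, was among the 8 highest at 0.9828. It read 7.35, 8.01 and 7.39 in large_follicle replicates 1 to 3 and 4.17, 5.87 and 6.26 in small_follicle replicates 1 to 3, with small_follicle replicate 1 lowest, as for KCNJ8.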
